A study of Oryza sativa with 12 samples.

Results

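In the rice line osspt5-1#12, 402 of 18282 loci were called for a change between mutant and wild type that differed between root and shoot. Of these, 44 were called in opposite directions. The shares, 2.2% and 0.241%, compare with 3.52% and 0.193% of all rows tested. Both counts leaned on single libraries, with 182 to 1214 and 17 to 117 when 1 library was left out. The effect compared here was that of this mutant against the wild-type cultivar Nipponbare (WT), in root minus in shoot. Its loci were all rice locus identifiers that reached 1 FPKM in 3 or more root libraries and also in 3 or more shoot libraries. FPKM is a transcript level corrected for gene length and for library depth. This rule kept 18282 of 31003 locus identifiers and of 38034 identifiers of all kinds, and these loci are called members below. The 4 groups were osspt5-1#12 root, WT root, osspt5-1#12 shoot and WT shoot, with 3 libraries each. Growth conditions were the same for all: a day of 15 h at 28 °C, a night of 9 h at 24 °C and a relative humidity of 70%. The mutant was represented by 1 line, and neither plant age nor the kind of lesion is given in the labels.

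SPT5 proteins are conserved transcription elongation factors. Together with SPT4 they form a clamp on RNA polymerase II that keeps it on the gene during elongation. Root and shoot of a vegetative rice plant transcribe different gene sets, the shoot being dominated by photosynthetic leaf tissue and the root by the uptake of water and minerals. The files give loci by identifier without gene names, and the reference table at hand paired a name with 1 identifier of 38034. Loci are therefore given by identifier, without a name or role, and the organ labels and the level of OsSPT5-1 itself were not checked on named genes. Root and shoot libraries were less alike (Pearson's r of log2 values across rows 0.786 to 0.885) than libraries of 1 group (0.92 to 0.978).

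Recovered depth ran from 10118071 to 15749857 reads per library. Mutant root libraries were the least alike within a group (r of 0.92 to 0.946) and mutant shoot libraries the most (0.972 to 0.978). A pair of short rows that are no members held 1.88% of all reads of mutant shoot library 1, 2.78% of library 3 of that group and 1.62% of WT root library 1. Elsewhere their share was at most 0.273%. These 3 libraries had the lowest depths. Mutant shoot library 2 held 0.0309% in these rows, within the 0.0248% to 0.0574% of the WT shoot libraries. Whether each library is a plant or pool of its own is not in the labels; the p-values therefore rest on library spread, part of which may be technical. In whole organs, fewer cells of a type and less RNA per cell cannot be told apart.

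The mutant effect was more positive in root for 144 members (0.788%, against 1.55% of all rows tested) and more negative in root for 258 (1.41%, against 1.98%; limma, adjusted p under 0.05 over all 25337 rows tested). The 402 members called made up 2.2% of the members, against 3.52% called among all rows tested. A positive difference means that the mutant stood higher relative to WT in root than in shoot. Differences of the called members ran from −8.66 to −0.79 and from 0.80 to 6.28 on the log2(FPKM + 1) scale, with a median size of 1.89 and standard errors of 0.172 to 1.02. The median size over all members was 0.36. Of the 402, 191 differed by at least 2 on this scale and 22 by at least 4. Opposite signs in root and shoot were found for 298 of them, 74.1%, against 33.3% of all members. Mutant and WT libraries did not overlap in root for 249 of the 402, in shoot for 337 and in both organs for 184. Over all members these shares were 25.1%, 42.8% and 12.8%. Selection for a difference between the organs favours opposite signs and libraries without overlap, so these shares are no further support. The members were shifted slightly upward in the mutant in both organs, with a median log2 change of 0.12 in root and 0.15 in shoot. With median-ratio factors these medians were 0.02 and −0.01. The split then was 189 more positive and 225 more negative in root, and it was 219 and 239 under quantile normalization, 45.7% and 47.8% positive against 35.8% as deposited.

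**Figure D1:**
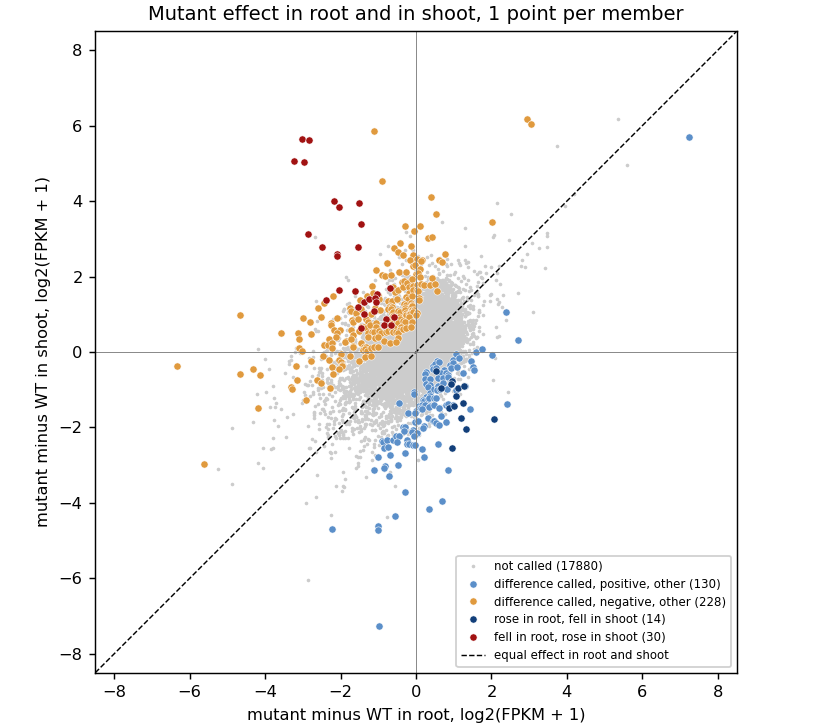
Mutant minus WT on the log2(FPKM + 1) scale in root (x axis) and in shoot (y axis), 1 point per member. Members called for the difference lie away from the dashed line of equal effect: 30 fell in root and rose in shoot (dark red, upper left), 14 rose in root and fell in shoot (dark blue, lower right), and 17880 members were not called (grey).

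The count of called members leaned on single libraries. Without mutant root library 1 it was 1214, and without mutant root library 3 it was 708. It was 259 and 234 without WT shoot library 2 or 3, 193, 182 and 192 without mutant shoot library 1, 2 or 3, and 197, 206 and 226 without WT root library 1, 2 or 3. Called in each of the 12 settings that leave out 1 library were 156 of the 402 members, 57 more positive and 99 more negative in root. Without the 3 libraries rich in the pair of short rows 23 members were called, 6 more positive and 17 more negative in root, and 2 were called in opposite directions. That setting was added after the data were seen and leaves 1 mutant shoot library, assumed to vary like the others. None of the 402 changed the sign of its difference in any of the 23 other settings. These settings reuse the libraries from which the 402 were chosen for a clear difference, so the kept sign is no further support.

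The largest differences belonged to members that fell in mutant root and rose in mutant shoot. There were 30 of them, and with 14 members of the opposite pattern they made up all 44 members called in opposite directions, 0.241% of the members against 0.193% of all rows tested. Their log2 changes ran from −3.22 to −0.59 in root (median −1.51) and from 0.64 to 5.65 in shoot (median 1.63). The mean level was higher in root than in shoot for 1 of the 30 in the mutant and for 26 of the 30 in WT. The median of the 30 on the log2(FPKM + 1) scale was 3.07, 2.73 and 2.83 in mutant root libraries 1 to 3, against 4.76, 4.64 and 4.06 in WT root libraries. It was 5.24, 5.19 and 5.18 in mutant shoot libraries, against 2.12, 2.62 and 2.28 in WT shoot libraries. The highest library medians thus lay in mutant shoot, and for 20 of the 30 the mean in mutant shoot exceeded even that in WT root. Mutant and WT libraries did not overlap in either organ for any of the 30. These medians and overlaps describe members chosen for their change and are no test of it. Some of the 30 lay below 1 FPKM in every WT shoot library, among them Os12g0282000 (0 in each), Os11g0428800 and Os03g0431600. They met the level rule in shoot through mutant libraries alone. Os10g0361000 was at 0 in every mutant root library and met the rule in root through WT libraries alone. Os12g0282000, Os03g0431600 and Os10g0348900 lay below 1 FPKM in every mutant root library and in every WT shoot library. They met the rule in both organs only through the groups where they were high, so their place among the 30 is no support for a reversal. The count of 44 was 117 and 72 without mutant root library 1 or 3, and 25 without WT shoot library 3. It was 27, 24 and 25 without mutant shoot library 1, 2 or 3, and 22, 17 and 20 without WT root library 1, 2 or 3. All 44 were called for the difference in each of these 12 settings, and 8 were called in opposite directions in each. Without the 3 libraries rich in the short rows, the median log2 changes of the 30 were −1.46 in root and 1.75 in shoot. The direction of each of the 30 could not change in that setting, since its mutant and WT libraries did not overlap.

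**Figure D2:**
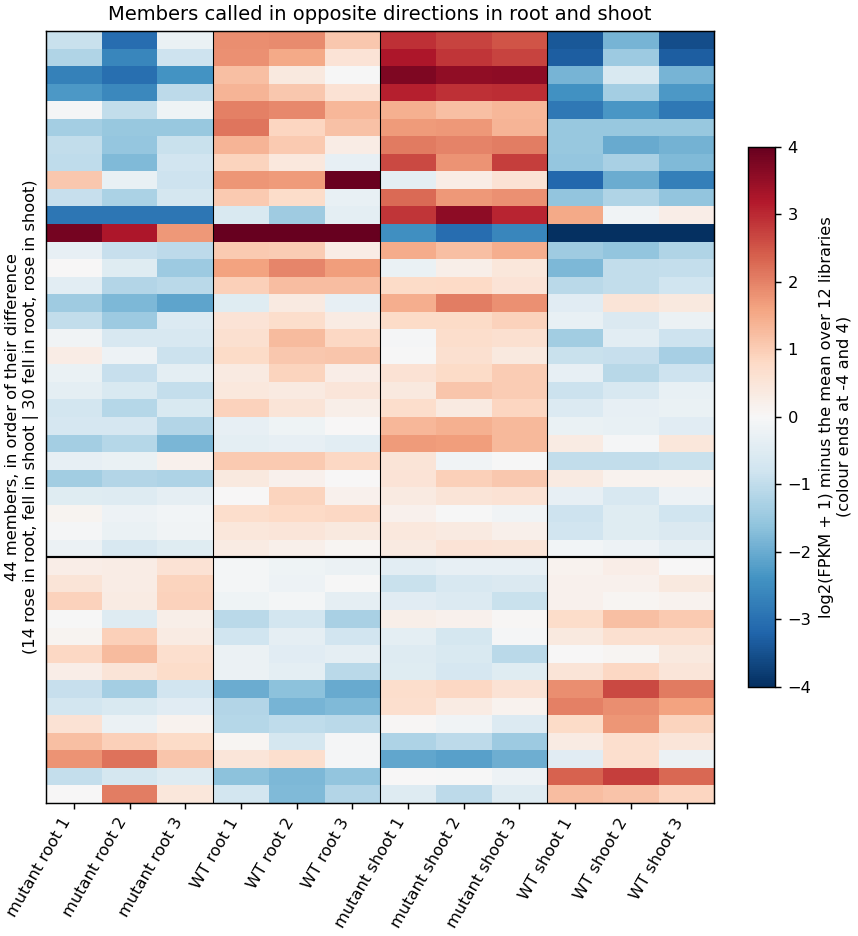
Level of the 44 members called in opposite directions, as log2(FPKM + 1) minus the member's mean over the 12 libraries, 1 row per member and 1 column per library, with columns grouped from left to right as mutant root, WT root, mutant shoot and WT shoot. Above the line are the 30 that fell in root and rose in shoot, with medians of 2.73 to 3.07 in mutant root and 5.18 to 5.24 in mutant shoot libraries, and below it the 14 with the opposite pattern.

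Os10g0195250, on chromosome 10 as its identifier says, had the most negative difference of all members. It had 7.31, 0.848 and 11.6 FPKM in mutant root libraries 1 to 3, against 54.5, 55.3 and 31.4 FPKM in WT root libraries. In shoot it had 115.1, 98.4 and 86.5 FPKM in the mutant, against 0.454, 3.22 and 0.304 FPKM in WT. Every mutant root library thus lay below every WT root library, and every mutant shoot library far above every WT shoot library. The mean fell 7.13-fold in root, to 6.6 ± 5.43 FPKM in the mutant against 47.1 ± 13.6 in WT, and rose 75.4-fold in shoot, to 100 ± 14.4 FPKM against 1.32 ± 1.64 (SD, n = 3 each). The size of these folds depended on single libraries, with 11.5-fold in root without mutant root library 3 and 263.8-fold in shoot without WT shoot library 2. On the log2 scale the change was −3.01 in root (SE 0.645, limma adjusted p = 0.0209) and 5.65 in shoot (SE 0.645, limma adjusted p = 0.000345). The difference between the organs was −8.66 (SE 0.912, limma adjusted p = 0.000598), and −7.83 without mutant root library 2. Without the 3 libraries rich in the short rows it missed the threshold (limma adjusted p = 0.0813).

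Os12g0236225, on chromosome 12, followed with nearly the same profile. Its levels were 3.83, 0.852 and 5.33 FPKM in mutant root, against 38.4, 30.8 and 15.3 FPKM in WT root. In mutant shoot it had 104.5, 80.3 and 72.6 FPKM, against 0.152, 3.08 and 0.153 FPKM in WT shoot, where it rested on 22 reads in all. The organs of the 2 genotypes were therefore in opposite order, with 25.7-fold more in shoot than in root of the mutant and 25.0-fold more in root than in shoot of WT. The mutant was 8.43-fold lower than WT in root and 76.1-fold higher in shoot, or 562.9-fold higher without WT shoot library 2. The difference was −8.44 on the log2 scale (SE 0.805, limma adjusted p = 0.000293), and −9.05 without WT shoot library 2. Whether Os10g0195250 and Os12g0236225 share sequence, and so reads, was not tested.

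Os01g0647200, on chromosome 1, had the strongest reversal in the sense that the smaller of its changes, that in root, exceeded the smaller change of every other member called in opposite directions. It had 0.671, 0.358 and 1.1 FPKM in mutant root, against 24.1, 13.3 and 9.78 FPKM in WT root. In shoot it had 143.7, 127.9 and 131.4 FPKM in the mutant, against 2, 6.24 and 2.04 FPKM in WT. Neither organ showed an overlap of the genotypes. The locus fell 22.1-fold in root (log2 change −3.22, SE 0.377, limma adjusted p = 0.000865) and rose 39.2-fold in shoot (log2 change 5.06, SE 0.377, limma adjusted p = 1.77e-05). Without WT shoot library 2 the rise was 66.4-fold. The difference was −8.28 (SE 0.534, limma adjusted p = 1.91e-05).

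The opposite reversal, a rise in mutant root with a fall in mutant shoot, was found for 14 members and was smaller. Log2 changes ran from 0.54 to 2.06 in root (median 1.03) and from −2.54 to −0.50 in shoot (median −1.25). The library medians of the 14 were 4.97, 5.16 and 4.69 on the log2(FPKM + 1) scale in mutant root, against 3.92, 3.89 and 3.59 in WT root. In shoot they were 3.58, 3.65 and 3.39 in the mutant, against 4.98, 5.24 and 4.99 in WT. The mean was higher in root than in shoot for 10 of the 14 in the mutant and for 1 in WT. All 14 were free of overlap in both organs. These medians, orders and overlaps describe members chosen for their change and are no test of it.

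Os07g0605400, on chromosome 7, led this group by the size of the smaller of its changes. It had 8.57, 38 and 11.8 FPKM in mutant root, against 4.63, 1.78 and 3.21 FPKM in WT root. In mutant shoot it had 5.58, 3.51 and 5.61 FPKM, against 20.9, 19.9 and 15.9 FPKM in WT shoot. Mutant root library 2 stood well above the other two: the mean was 6.07-fold higher than in WT root with it and 3.17-fold without it. The log2 change was 2.06 in root (SE 0.457, limma adjusted p = 0.0238) and −1.77 in shoot (SE 0.457, limma adjusted p = 0.0349). The SE is the same in both organs because 1 spread was shared by all 4 groups. Mutant root varied most (SD 16.2 FPKM, against 1.42 in WT root), so this SE may understate the spread in root. The difference was 3.83 (SE 0.646, limma adjusted p = 0.00977), or 3.22 without mutant root library 2. Its call was lost with a replicate block within genotype (limma adjusted p = 0.0541) and without the 3 libraries rich in the short rows (limma adjusted p = 0.157).

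Os08g0171700, on chromosome 8, was second by the smaller of its changes, though not by its difference (3.49 for Os01g0170600). It had 37.2, 49 and 22.9 FPKM in mutant root, against 14.5, 16.5 and 9.67 FPKM in WT root. In shoot it had 1.62, 1.43 and 1.87 FPKM in the mutant, against 6.99, 16.6 and 8.25 FPKM in WT. The mutant had 22.2-fold more in root than in shoot, and WT had 1.28-fold more. Its rise in root was 2.68-fold (limma adjusted p = 0.0426) and its fall in shoot 6.48-fold (limma adjusted p = 0.00365). The difference was 3.38 on the log2 scale (SE 0.483, limma adjusted p = 0.00398), and its limma adjusted p was 0.157 without the same 3 libraries.

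**Figure D3:**
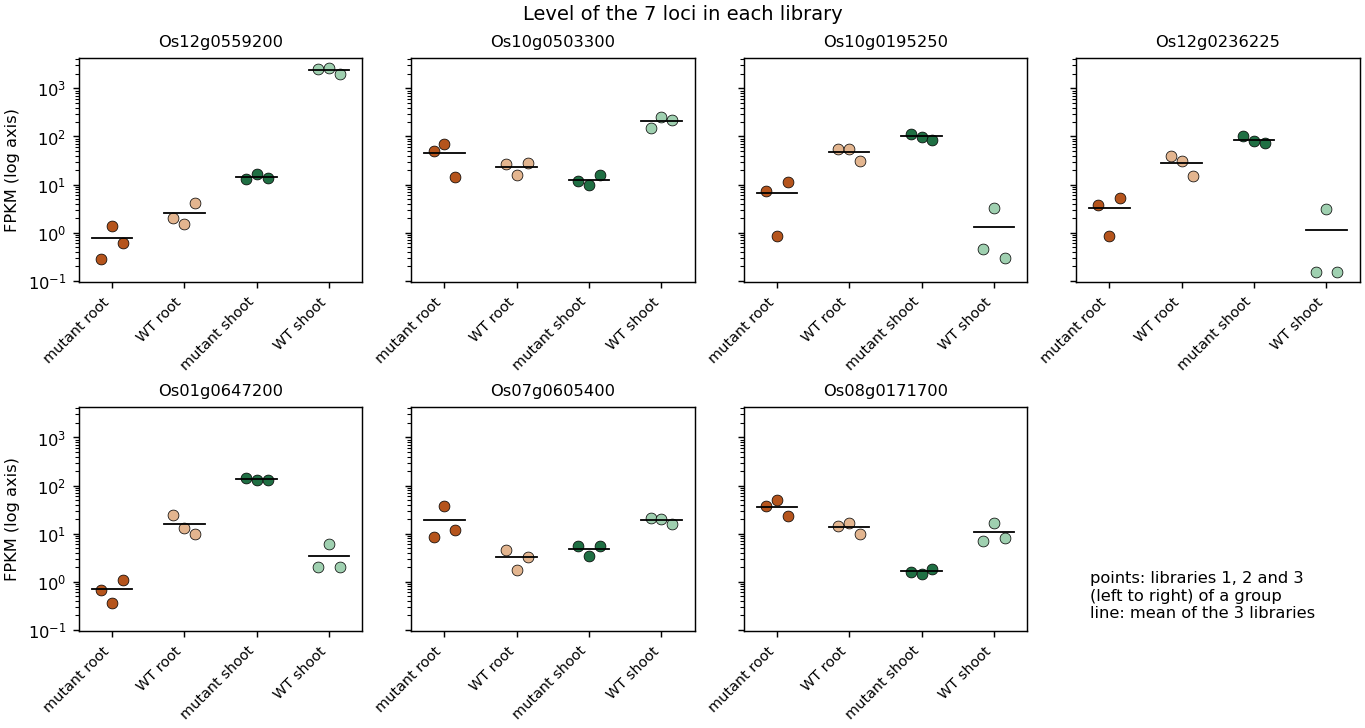
FPKM of the 7 loci described, on a log axis, with 1 point per library (libraries 1 to 3 from left to right) and a line at the mean of the 3 libraries of each group. Os10g0195250, Os12g0236225 and Os01g0647200 were lower in mutant than in WT root and higher in mutant than in WT shoot, Os07g0605400 and Os08g0171700 the other way round, and the shoot level of Os12g0559200 was 14.5 FPKM on average in the mutant, against 2387 FPKM in WT.

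A change called in 1 organ alone was the most common form of difference. In shoot, 205 members were called without a call in root, of which 114 rose and 91 fell. A missing call does not show that root was unchanged. In root, 87 of the 114 that rose in shoot were lower, and 54 of the 91 that fell in shoot were higher, in mutant than in WT. Selection for a difference between the organs favours such opposite signs, so these counts describe the members and show no change in root. Among the 114, the median log2 change was −0.26 in root and 1.58 in shoot. Among the 91 it was 0.16 in root and −1.83 in shoot. As background, 6.84% of all members were called in root, where 554 rose (3.03%) and 696 fell (3.81%). In shoot 8.72% were called, where 892 rose (4.88%) and 702 fell (3.84%). Among all rows tested, 7.0% were called in root (2.63% rose, 4.37% fell) and 9.5% in shoot (4.8% rose, 4.69% fell).

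The most positive difference of all members was that of Os12g0559200 on chromosome 12, a locus of the shoot. In root it had 0.284, 1.39 and 0.622 FPKM in the mutant, against 1.99, 1.53 and 4.06 FPKM in WT. In shoot it had 13, 16.7 and 13.9 FPKM in the mutant, against 2515.1, 2615.5 and 2030.3 FPKM in WT. The WT shoot libraries stood far above all others, and mutant libraries lay below WT libraries in both organs. It fell 164.2-fold in shoot, to 14.5 ± 1.94 FPKM in the mutant against 2387 ± 312.9 FPKM in WT (SD, n = 3 each; log2 change −7.26, SE 0.282, limma adjusted p = 9.57e-08). In root the mutant mean was 3.31-fold lower, or 5.59-fold without mutant root library 2, and did not pass the test (log2 change −0.98, limma adjusted p = 0.0603). Its level in WT root, 2.53 FPKM on average, lay near the 1 FPKM of the level rule, and a change in such low values is understated on the log2(FPKM + 1) scale. The difference was 6.28 (SE 0.399, limma adjusted p = 1.91e-05).

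Os10g0503300, on chromosome 10, had the second most positive difference and was well expressed in both organs. It had 50.9, 69.3 and 14.2 FPKM in mutant root, against 26.8, 15.5 and 28.1 FPKM in WT root. In mutant shoot it had 11.8, 9.86 and 15.6 FPKM, against 152.7, 253.5 and 223.4 FPKM in WT shoot. The genotypes overlapped in root and did not overlap in shoot. It fell in shoot (log2 change −3.96, SE 0.485, limma adjusted p = 0.000533), and its log2 change in root was 0.69 (SE 0.485, limma adjusted p = 0.425). The difference was 4.65 (SE 0.686, limma adjusted p = 0.00475), and 5.31 without mutant root library 3. Its call was lost without the 3 libraries rich in the short rows (limma adjusted p = 0.145). In the mutant the root level was 3.6-fold above that of shoot, and in WT the shoot level was 8.96-fold above that of root.

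In root, 114 members were called without a call in shoot, 91 of which fell and 23 rose. Falls were the larger, with log2 changes down to −6.32 and a median of −1.88, against a median of 0.3 in shoot for the same 91 members. The rises reached 2.7, with a median of 1.08, against −0.33 in shoot. Mutant and WT shoot differed in the opposite direction for 67 of the 91 and for 20 of the 23, without passing the test, which the same selection favours. Of the 91 that fell, 82 had a higher mean in WT root than in WT shoot, against 10738 of all 18282 members. Choosing members for a fall in root favours this order, and the count is a description. Their median level was 2.97 in mutant root, against 5.14 in WT root, and 2.76 in mutant shoot, against 2.28 in WT shoot, all on the log2(FPKM + 1) scale.

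Some members moved the same way in both organs, to different extents. There were 13 of them, while 321 members in all, 1.76%, were called in the same direction in root and shoot, against 1.49% of all rows tested. Both organs fell for 8, with median log2 changes of −2.59 in root and −2.13 in shoot. Both rose for 5, named here after their values were seen. Os03g0115800 and Os10g0446400 had the more positive difference in root. Os03g0115800 had 138.5, 172.5 and 190 FPKM in mutant root against 0, 0.362 and 0 in WT root, and 52.8, 52.5 and 46.6 FPKM in mutant shoot against 0 in each WT shoot library (WT root rested on 7 reads; difference 1.54, limma adjusted p = 0.0094). It met the level rule in both organs through mutant libraries alone, so with WT at or near 0 its difference compares the levels in mutant root and mutant shoot and does not show a larger fold in root. Os10g0446400 had 26.9 ± 3.62 FPKM in mutant root against 4.33 ± 0.438 in WT root, and 9.05 ± 1.07 FPKM in mutant shoot against 3.82 ± 0.511 in WT shoot (SD, n = 3 each; difference 1.32, limma adjusted p = 0.0157). The other 3 had the more negative difference in root.

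Os08g0290700 had 14.3 ± 8.07 FPKM in mutant root against 0.862 ± 0.705 in WT root, and 127.9 ± 13 FPKM in mutant shoot against 0.933 ± 0.808 in WT shoot (SD, n = 3 each; difference −3.23, limma adjusted p = 0.0295). Os12g0113600 had 12 ± 8.33 FPKM in mutant root against 0.272 ± 0.188 in WT root, and 75.9 ± 6.81 FPKM in mutant shoot against 0.156 ± 0.0781 in WT shoot (SD, n = 3 each; difference −3, limma adjusted p = 0.0373). All 6 of its WT libraries lay below 0.5 FPKM, so it too met the level rule through mutant libraries alone, and its difference is mainly one between the mutant levels of the organs. Os01g0387133 had 12.9 ± 4.26 FPKM in mutant root against 2.35 ± 0.106 in WT root, and 34.2 ± 2.07 FPKM in mutant shoot against 2.24 ± 0.169 in WT shoot (SD, n = 3 each; difference −1.43, limma adjusted p = 0.0267). These 3 loci were low in WT of both organs and higher in both organs of the mutant, with the higher mutant level in shoot. The remaining 26 called members passed the test for the difference without passing it in either organ, and all 26 had opposite signs in root and shoot. A called difference without a call in either organ favours opposite signs, so this count is no further support.

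Read the other way, the same contrast says how the organs differ within each genotype. Among the 258 members with a more negative difference, root exceeded shoot for 68 in the mutant and for 226 in WT. Among the 144 with a more positive difference, root exceeded shoot for 93 in the mutant and for 17 in WT. The order of the organs turned between the genotypes for 58.2% of the called members, against 24.9% of all members. The called members' median log2 difference of root minus shoot was −0.39 in the mutant and 0.45 in WT, against 0.08 and 0.13 over all members. These are the values that entered the test and lend it no further support.

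By their identifiers, called members lay on all 12 chromosomes. The share called ran from 1.39% of the members on chromosome 5 (21 of 1508) to 3.49% on chromosome 10 (32 of 917), around the 2.2% of all members. On the deposited scale, more negative than positive differences were found on each of the 12, with 21 positive and 22 negative on chromosome 3. The excess of negative ones depended on scaling: 35.8% of called members were positive as deposited and 47.8% under quantile normalization. Chromosomes were not counted under other scalings. Neighbours in the order of identifiers were called together in 30 of 18270 neighbouring pairs, 28 of these with the same direction. A called neighbour was present for 13.7% of called members and for 4.33% of all members. The longest run held 3 called neighbours. Overlapping genes can share reads in libraries that do not mark strand, and its part in the shared direction was not tested.

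**Figure D4:**
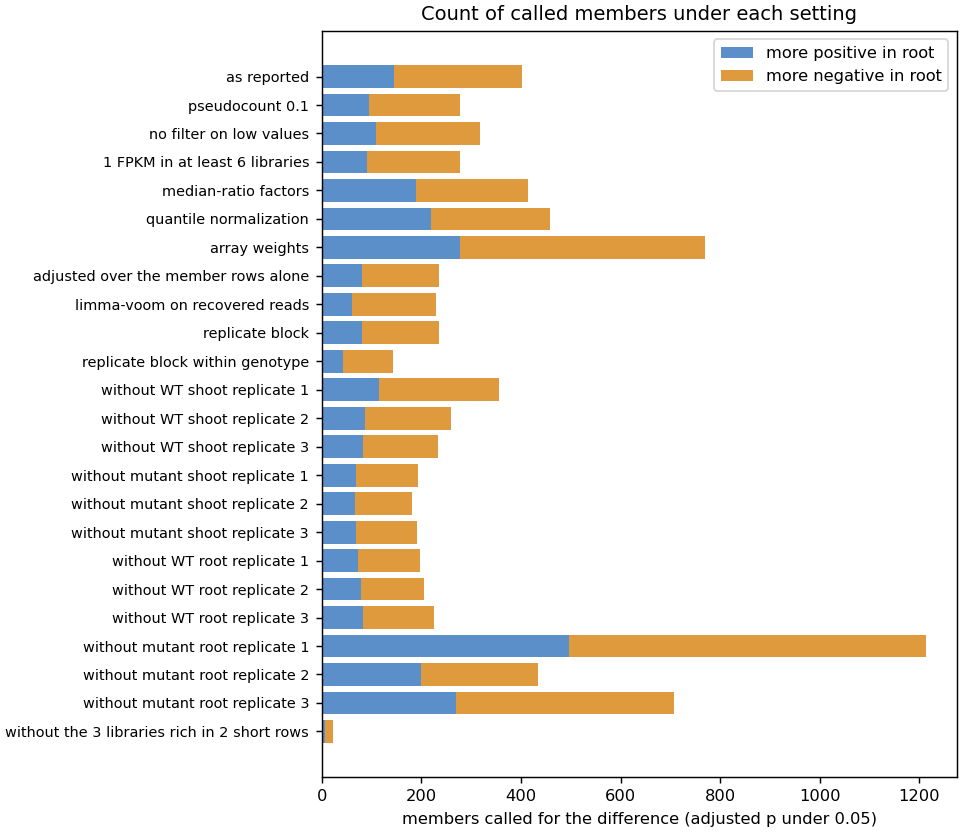
Members called for the difference (x axis, count) under each setting (y axis), split into more positive and more negative in root. The bar as reported stands at 402 members, the others run from 23 without the 3 libraries rich in the pair of short rows to 1214 without mutant root library 1.

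The level rule separated members by small margins at its edge. The third highest value in the organ where a locus was lower was 1.0004 FPKM for the member just inside and 0.9994 FPKM for the locus just outside. Between 1 and 1.1 FPKM lay 311 members, and between 0.9 and 1 FPKM lay 328 loci outside. Some members passed in an organ through 1 genotype: 68 reached 1 FPKM in root in mutant libraries alone and 126 in WT libraries alone, and in shoot these were 170 and 91.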

How the data were processed

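RNA of rice (Oryza sativa) was measured in 12 libraries. Per the labels' protocols, 2 µg of RNA entered the NEBNext Ultra RNA kit, which does not mark strand. Per the file headers, the authors deposited FPKM for each library. The build IRGSP-1.0 and the tools Bowtie2 2.2.3, HTSeq 0.6.0 and HISAT2 2.1.0 appear in the submitters' processing notes, with no role stated. The annotation release is not given in the sources used here. Shoot files held 35395 rows and root files 34948, and a row missing from 1 organ was set to 0 there.

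All 25337 rows that reached 1 FPKM in 3 or more libraries entered 1 fit of 12 libraries and 4 group means (limma 3.58.1, R 4.3.3; limma-trend on log2(FPKM + 1), Benjamini-Hochberg adjustment, adjusted p under 0.05). The contrast was mutant minus WT in root, minus mutant minus WT in shoot, and each organ's own effect came from the same fit. The fit shared 1 spread per row between all 4 groups, so a locus has the same SE in root and in shoot. The p-values of an organ, and calls in opposite directions, thus do not rest on that organ's spread alone. Mutant root libraries, the least alike within a group, had the lowest array weights (0.214 to 0.365). The scale understates changes of low values. The procedure was tested on simulated data. Reads were recovered from the FPKM values, whose low values are whole multiples of the worth of 1 read. Within 0.002 reads, every row, 100%, gave whole numbers. At these depths 3 reads of a 1000-base row are 0.1905 to 0.2965 FPKM.

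Members, classes and lists were chosen with earlier results of these data known. By the rule for named genes, the 2 members with the largest difference in each direction and the 2 with the strongest reversal in each direction are given, 7 loci since Os10g0195250 meets both. The gene lists drawn up by function were not used, because the reference table (ASM3414082v1, 39387 entries) matched 1 identifier. Alternatives changed the pseudocount, filter, scaling, weights, adjustment, test, block and libraries.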

Additional observations from a re-analysis of the deposited data

Results flagged for a closer look

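The 7 loci named by rule passed the interaction test between root and shoot, which their choice among the called members fixed and which is no further support. Of the 7, 4 lost the call without the 3 libraries rich in the pair of short rows (limma adjusted p of 0.145 for Os10g0503300, 0.0813 for Os10g0195250, 0.157 for Os07g0605400 and 0.157 for Os08g0171700). The difference, root minus shoot on the log2(FPKM + 1) scale, was −8.66 for Os10g0195250, −8.44 for Os12g0236225 and −8.28 for Os01g0647200, which were lower in mutant than in WT root and higher in mutant than in WT shoot. It was 3.83 for Os07g0605400 and 3.38 for Os08g0171700, which moved the other way in both organs. For Os12g0559200 it was 6.28 and for Os10g0503300 it was 4.65, both called in shoot alone. Single outlying libraries were not tested, with 3 libraries a group.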

How the results depend on the processing

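The 402 members called (144 more positive, 258 more negative in root), the 44 called in opposite directions (30 fell in root and rose in shoot, 14 the reverse) and the 1250 and 1594 called in root and in shoot moved in number with the processing, the cause of which was not tested. More positive differences numbered 95 with a pseudocount of 0.1, 91 with 1 FPKM required in 6 libraries and 219 under quantile normalization. Median-ratio factors left 8 members that rose in root and fell in shoot. Array weights, whose iteration stopped before its tolerance, gave 769 (278 and 491), 8 of that reversed kind, 506 in root and 8599 in shoot. Adjustment over the member rows alone gave 235 (80 and 155), and limma-voom on recovered reads gave 229 (61 and 168). Without the 3 libraries rich in the pair of short rows there were 23 (6 and 17), 2 in opposite directions (2 and 0), 142 in root and 84 in shoot, with fewer libraries. Leaving out 1 library gave 182 to 1214 (67 to 496 and 115 to 718), 17 to 117 in opposite directions (12 to 91 and 3 to 29), 420 to 3724 in root and 672 to 2647 in shoot. Of 402, 98 were called in every planned setting. All settings reuse the libraries from which the 402 and the named loci were chosen, so a kept direction is no further support. The 7 named loci kept direction in all 23 settings and their call in 156 of 161 combinations.

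Deviations of same-numbered libraries from their group means had correlations of −0.321 to 0.185. Between root and shoot these were 0.112, 0.032 and 0.185 in WT and 0.097, −0.121 and 0.137 in the mutant. Without a reference from differently numbered libraries they cannot exclude that the numbers mark a pairing. A replicate block gave 236 (80 and 156), 20 in opposite directions (16 and 4) and 632 in root, and a replicate block within genotype gave 142 (42 and 100). The named calls lost were Os07g0605400 with the block within genotype (limma adjusted p = 0.0541) and, without the 3 libraries, Os10g0503300 (0.145), Os10g0195250 (0.0813), Os07g0605400 (0.157) and Os08g0171700 (0.157). Os12g0559200, Os12g0236225 and Os01g0647200 kept their call in every setting.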
